A study of Saccharomyces cerevisiae with 12 samples.

Results

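The genes described here encode the proteins of the small (40S) subunit of the cytosolic ribosome of budding yeast. They were taken by name: 57 genes are listed, RPS0A to RPS31 and ASC1, and 54 of them have a probe among the 5974 of the array table. RPS16A, RPS19A and RPS30A have none there and were not analysed here. The 57 genes make 33 proteins. Of these, 24 are encoded by a pair of paralogous genes and 9 by a single gene, among them RPS2, RPS3, RPS12, RPS13, RPS15, RPS20, RPS31 and ASC1, and 21 pairs have a probe for both genes. By the position of the protein in the subunit, 21 of the measured genes encode proteins of the head and 33 proteins of the body or platform.

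The small subunit binds messenger RNA and reads its codons. Its proteins are needed in equal numbers, and in growing yeast their genes are among the most strongly transcribed, under activators such as Rap1, Fhl1, Ifh1 and Sfp1 that answer to nutrients and stress. Most of the genes were kept as a pair of copies after an ancient duplication of the genome, and the copies often differ in how much messenger RNA they give.

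Total RNA was copied into radioactive cDNA and measured on arrays with a probe for each yeast open reading frame, and each of 6 groups has 2 arrays, lettered A and B. The groups are ixr1 null hypoxia, wild type hypoxia, ixr1 null shift, wild type shift, ixr1 null air and wild type air. Wild type is the strain BY4741, ixr1 null is labelled as that strain without IXR1, the gene of an HMG-box protein that binds DNA, and the medium of all cultures was synthetic complete with 2% glucose, at 30 C. Hypoxia means overnight growth in anaerobic jars at less than 1% oxygen with ergosterol (20 mg/l) and Tween 80 (0.5%), additions that the air and shift cultures are not said to have had. Shift means growth in air to an OD600 of 0.8 and then 3 hours of bubbling with nitrogen. The labels do not say whether A and B are separate cultures or repeated measurements, so the spread behind each p-value is that of these arrays alone and may be technical.

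Signals are the deposited intensities, scaled so that each array averages close to 1. Arrays list from 69 to 3489 probes at exactly 0, the most on ixr1 null shift array A, and 12 of the 54 genes are at 0 there, against 0 to 5 on each of the other arrays. With 3489 of 5974 probes at 0, the median of ixr1 null shift array A is itself 0. Any reading above 0 on it counts below as above the array median. The probe for IXR1 read 9.75 and 8.64 on the ixr1 null air arrays and 8.11 and 7.03 on the wild type air arrays (log2 difference 0.14 ± 0.48, SE, limma adjusted p = 0.997), so the genotype is given as labelled and each direction between genotypes rests on the labels. BY4741 is a MATa strain. The summed signal of 4 genes specific to alpha cells was 1.15 to 1.46 on the hypoxia arrays, 0.255 to 1.67 on the shift arrays and 0.836 to 1.46 on the air arrays, and these genes differ among themselves. STE3, the receptor for a-factor, was at 0 on 4 arrays and above the array median on none, MF(ALPHA)2 was above it on 1 array and MF(ALPHA)1 on 3, and SAG1, the alpha agglutinin, was above it on 11 of 12. The summed signal of 7 genes specific to a cells, of which STE6, the exporter of a-factor, was at 0 on 6 arrays, was 2.13 to 5.48 on the hypoxia arrays, 0.128 and 3.45 on the shift arrays lettered A, 17.9 and 21.8 on those lettered B, and 17.3 to 23.2 on the air arrays. At a limma adjusted p under 0.05 in hypoxia against air, 2 of 5 tested fell and none rose in the ixr1 null strain, where 5.58% of all probes fell and 6.41% rose. In the wild type 3 of 6 fell and 1 rose, where 6.84% of all probes fell and 5.09% rose. The part of that difference in the results on ribosomal protein genes was not tested.

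Most small subunit genes were bright on every array. The median gene stood at the 86.7th percentile of all probes on ixr1 null shift array A, its lowest place, and at the 95.9th on array B of that group, its highest. Of the 54 genes, 39 were above the array median on all 12 arrays. On ixr1 null shift array A that asks only for a reading above 0. RPS22B, at 0.123, counts as above there, where the median of the positive readings was 0.730. RPS31, whose product is made as a fusion to ubiquitin and cut free, and RPS6B, for the protein that is phosphorylated in answer to nutrients, were the brightest of the genes on 11 of the 12 arrays, and RPS23A, for a protein of the decoding centre, on ixr1 null shift array A. No gene reached the brightest value of an array: the closest stood at 54.7% of it, on ixr1 null air array B.

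The dimmest of the genes were all copies from pairs. RPS4B, RPS7A, RPS11A and RPS18A were never above the array median, and RPS6A and RPS10B were above it on 1 array of 12 each, while the other copy of each of these 6 pairs was above it on all 12. RPS11A was at 0 on 8 arrays and read at most 0.144 elsewhere, and RPS11B read 1.71 to 6.49. In the same way RPS18A was at 0 on 6 arrays and read at most 0.327, and RPS18B read 1.43 to 6.11. Levels of different probes are not compared beyond their place among the probes of an array, since the probes differ in ways that the labels do not record. Copies of a pair have nearly the same coding sequence, so part of the signal of a probe may come from the other copy. Of all 648 readings of these genes 34 were 0, which is 12 on ixr1 null shift array A, 5 on ixr1 null shift array B and 17 on the other arrays together.

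**Figure D1:**
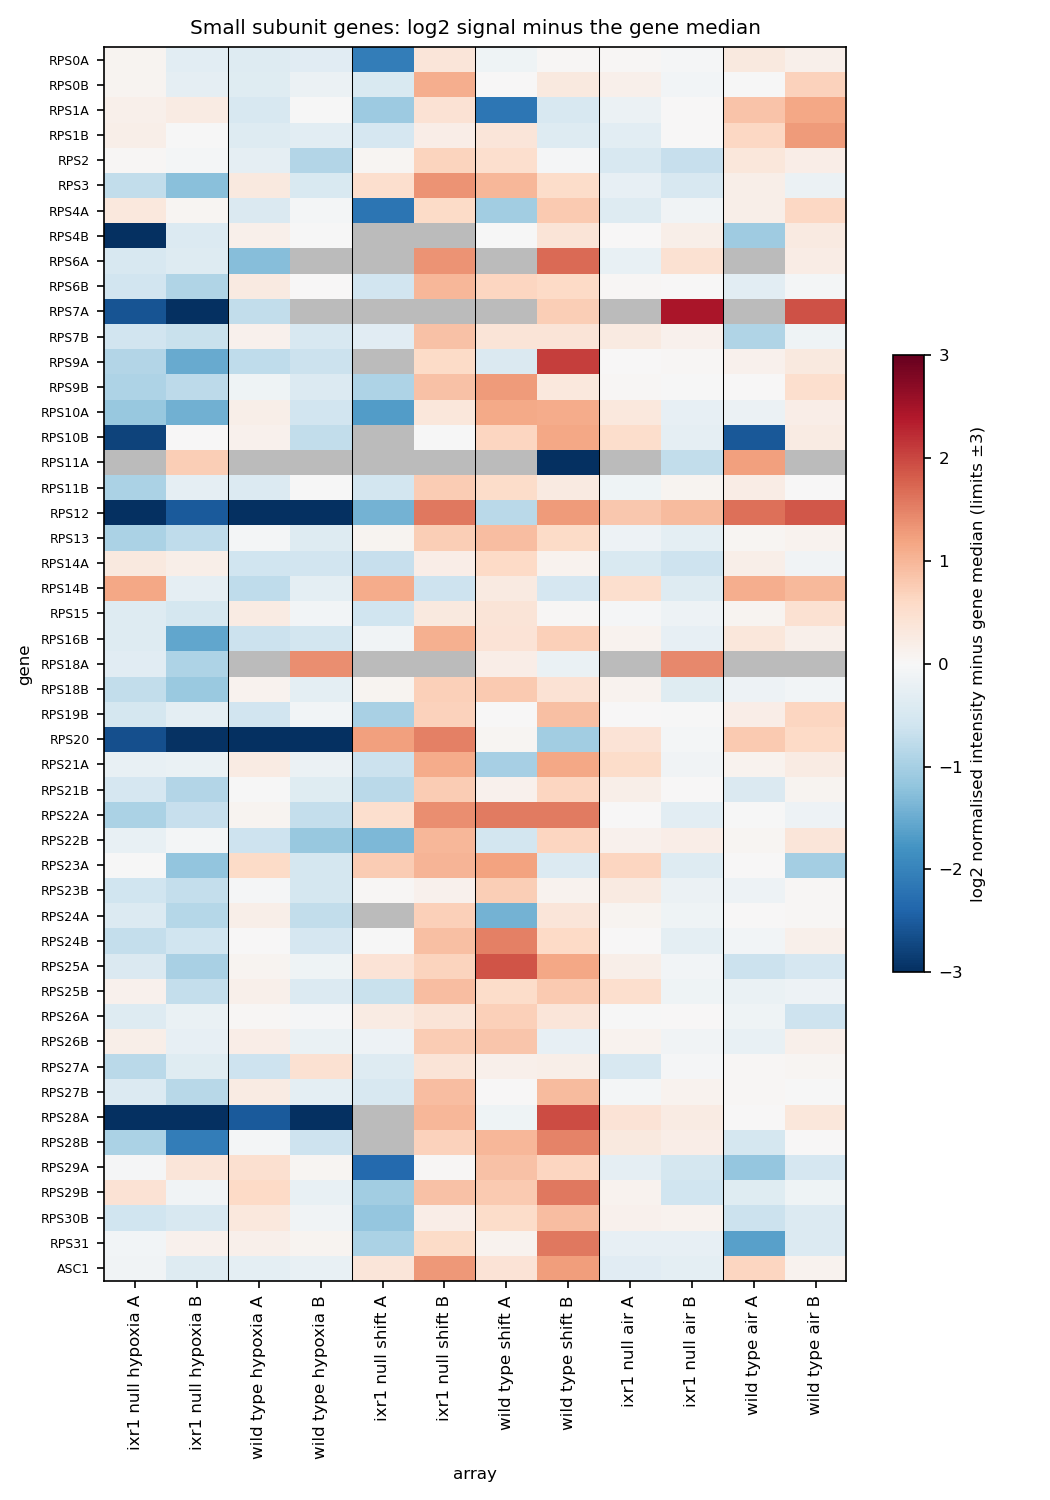
Each row is a small subunit gene and each column 1 of the 12 arrays; colour is the log2 normalised intensity minus the median of that gene over its arrays, limited to ±3, and grey marks a reading of 0. RPS12, RPS20 and RPS28A are dark blue on the 4 hypoxia arrays, and the column of ixr1 null shift array A holds more grey cells than any other.

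Overnight hypoxia changed few of these genes past the test. RPS28A, RPS20 and RPS12 fell in the ixr1 null strain and none rose. RPS20 and RPS12 fell in the wild type. RPS12, RPS20 and RPS28A encode proteins of the head, which swivels as the ribosome moves along the message. Signals were quantile normalised, 0 was taken as missing, and a gene was tested with limma where every array of the groups compared had a value. An adjusted p under 0.05 counts as a change. The median SE over the genes was 0.58 in the ixr1 null strain and 0.57 in the wild type. With 2 arrays per group, small differences were therefore unlikely to pass, and the large size of those that did is partly set by the threshold. Of 51 genes tested in the ixr1 null strain 0 rose and 3 fell, which is 5.88%, where 12% of all 5505 probes changed, 6.41% up and 5.58% down. Of 50 tested in the wild type 1 rose and 2 fell, which is 6%, where 11.9% of all 4969 probes changed, 5.09% up and 6.84% down. The share of small subunit genes that changed was below that of all probes in both genotypes, but it rests on 3 genes in each and was not tested. In the ixr1 null strain the share that fell, 5.88%, was near the 5.58% of all probes, while 0 rose against 6.41%.

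RPS12 (YOR369C), for a protein of the beak of the head, read 0.0644 and 0.449 on the ixr1 null hypoxia arrays and 0.0994 and 0.0998 on the wild type hypoxia arrays, against 3.34 and 3.55 on the ixr1 null air arrays and 4.76 and 5.54 on the wild type air arrays. All 4 hypoxia readings lay below all 4 air readings. The ixr1 null log2 difference was -4.97 ± 1.18 (limma adjusted p = 0.0214), with no fold because the reading on hypoxia array A is under the 10th percentile of that array. That call was lost without ixr1 null air array A or B or without hypoxia array A (adjusted p = 0.1001, 0.103 and 0.128), and the difference was -3.40 with hypoxia array A left out and -6.54 with array B left out. The wild type fall was 59.8-fold (log2 difference -5.90 ± 1.14, limma adjusted p = 0.00621), and without wild type hypoxia array B the adjusted p was 0.0519. Messenger RNA lost from every cell and messenger RNA lost from some of the cells cannot be told apart in such bulk samples.

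RPS20 (YHL015W), for a protein of the head that lies beside Rps3, read 0.254 and 0.277 on the ixr1 null hypoxia arrays and 0.0435 and 0.169 on the wild type hypoxia arrays, against 1.87 and 1.33 on the ixr1 null air arrays and 1.93 and 1.81 on the wild type air arrays. Here too the 4 hypoxia readings were all lower than the 4 air readings. The ixr1 null fall was 7.90-fold (log2 difference -2.98 ± 0.60, limma adjusted p = 0.00959). It no longer passed the test without ixr1 null air array A (adjusted p = 0.0815) or without ixr1 null hypoxia array B (adjusted p = 0.0601). The wild type log2 difference was -4.55 ± 0.60 (limma adjusted p = 0.000649), and it was -3.80 without wild type hypoxia array A and -5.29 without array B.

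RPS28A (YOR167C), for a small protein of the head near the path by which the message leaves, read 0.0789 and 0.0136 on the ixr1 null hypoxia arrays and 0.232 and 0.117 on the wild type hypoxia arrays, against 2.03 and 1.76 on the ixr1 null air arrays and 1.25 and 1.56 on the wild type air arrays. The groups did not overlap in either genotype. The ixr1 null log2 difference was -6.94 ± 1.11 (limma adjusted p = 0.00394), and it was -8.67 with hypoxia array A left out and -5.21 with array B, whose reading is dim, left out. With zeros kept and low values floored it was -4.78 and missed the threshold (adjusted p = 0.102). The wild type difference of -3.30 ± 1.07 did not pass the test (limma adjusted p = 0.0868). The other copy, RPS28B, whose protein is known in yeast to bind its own messenger RNA and promote its decay, read 0.554 and 0.355 on the ixr1 null hypoxia arrays, 0.896 and 0.657 on the wild type hypoxia arrays, 1.24 and 1.19 on the ixr1 null air arrays and 0.657 and 0.822 on the wild type air arrays. Its differences were -1.76 ± 0.55 in the ixr1 null strain (limma adjusted p = 0.0777) and -0.07 ± 0.54 in the wild type (adjusted p = 0.968).

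**Figure D2:**
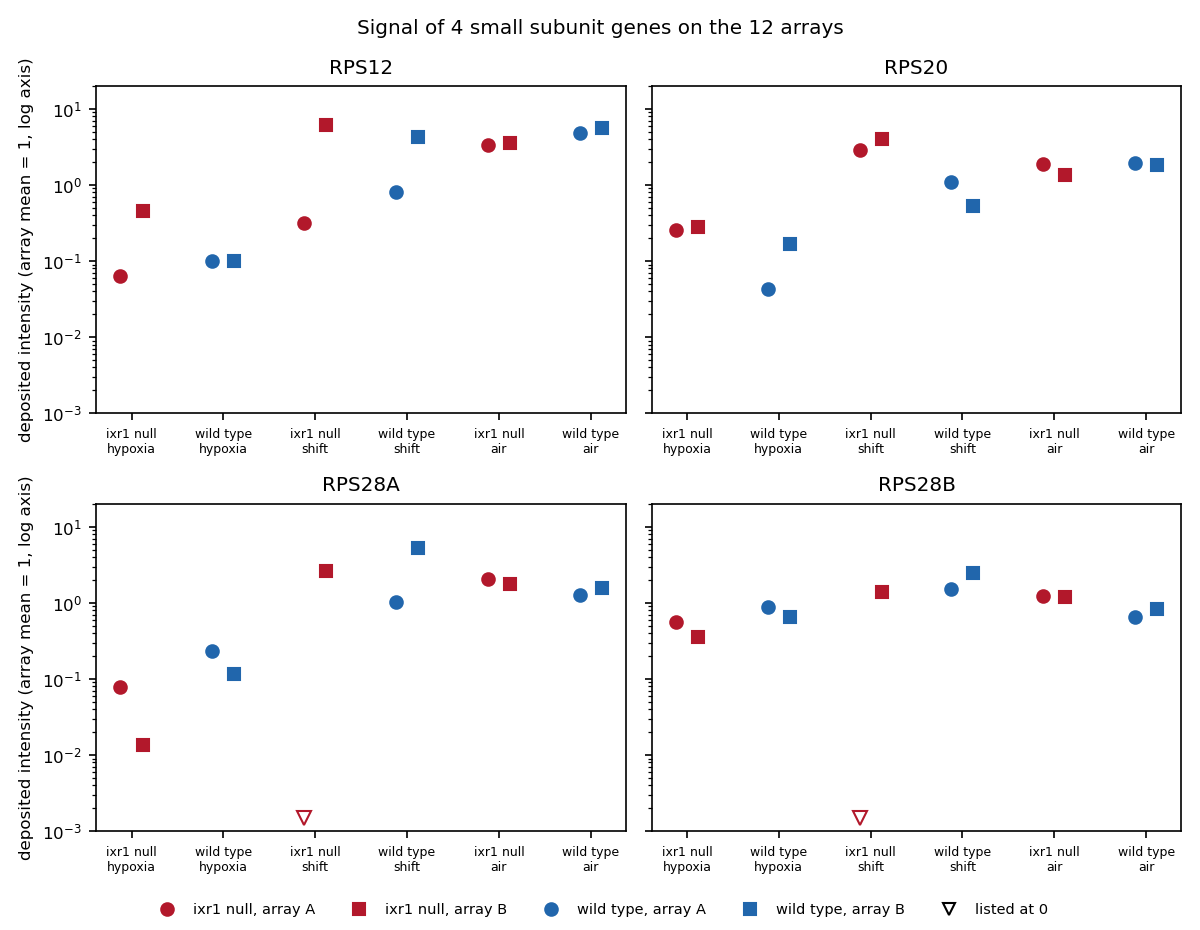
Deposited intensity (log axis, array mean close to 1) of RPS12, RPS20, RPS28A and RPS28B on the 12 arrays, with 1 point per array, circles for array A, squares for array B, red for ixr1 null and blue for wild type; open triangles at the bottom mark readings of 0. RPS12, RPS20 and RPS28A are lower on all 4 hypoxia arrays than on the 4 air arrays, and RPS28B overlaps between them.

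Most of the genes lay within 1 log2 unit of their air level in hypoxia. The difference lay between -1 and 1 for 41 of 51 genes in the ixr1 null strain, which is 80.4% against 59.0% of all probes, and for 39 of 50 in the wild type, which is 78.0% against 63.3%. In the hypoxia and air groups these genes also differed less than all probes between arrays A and B. The median size of that log2 difference was 0.37 against 0.67 in ixr1 null hypoxia and 0.21 against 0.47 in ixr1 null air. It was 0.41 against 0.44 in wild type hypoxia and 0.29 against 0.50 in wild type air. The part of this smaller spread in the shares within 1 log2 unit was not tested. Between the shift arrays the median size was 1.39 against 0.92 in the ixr1 null strain and 0.53 against 0.99 in the wild type. Genes beyond 1 that did not pass the test included RPS4B (-1.82), RPS10B (-1.52), RPS10A (-1.31) and RPS9A (-1.21) in the ixr1 null strain and RPS1B (-1.30), RPS1A (-1.26), RPS22B (-1.10) and RPS29A (1.10) in the wild type. The median over the genes was -0.56 in the ixr1 null strain, with 39 of 51 below 0, where the median of all probes was -0.20. The wild type median was -0.22, with 35 of 50 below 0, where the median of all probes was 0.01. That wild type median was -0.46 without wild type hypoxia array A and -0.03 without array B. Head proteins had a median of -0.69 over 20 genes in the ixr1 null strain and -0.20 over 20 in the wild type, and proteins of the body or platform -0.52 over 31 and -0.25 over 30.

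Both arrays of a group can be set against both of the other. Of the ixr1 null genes 30 of 51 were lower on both hypoxia arrays than on both air arrays, where 32.9% of all probes were, and 7 were higher, where 24.2% were. Of the wild type genes 22 of 50 were lower and 7 higher, where 30% and 30.9% of all probes were. Over both genotypes and the deposited values, 11 of 54 genes were lower on all 4 hypoxia arrays than on all 4 air arrays, which is 20.4% against 9.88% of all probes. Besides RPS12, RPS20 and RPS28A these included ASC1, RPS0A, RPS9A, RPS9B, RPS11B, RPS16B and RPS19B, none of which passed the test in either genotype. RPS31 was among the 2 of 54 genes higher on all 4 hypoxia arrays, 3.70% against 10.9% of all probes.

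ASC1 encodes the yeast counterpart of RACK1, a signalling scaffold on the head. It read 3.04 and 2.38 on the ixr1 null hypoxia arrays and 2.74 and 2.86 on the wild type hypoxia arrays, against 3.13 and 3.17 on the ixr1 null air arrays and 4.90 and 3.48 on the wild type air arrays. Its log2 differences were 0.07 ± 0.51 and -0.64 ± 0.51 after normalisation (limma adjusted p = 0.959 and 0.551), so the ixr1 null difference has another sign than on the deposited scale, where it is -0.23 to -0.32 under the alternatives without quantile normalisation. RPS31 read 12.01 and 12.1 on the ixr1 null hypoxia arrays and 13.2 and 12.5 on the wild type hypoxia arrays, against 11.0 and 11.2 on the ixr1 null air arrays and 3.83 and 9.25 on the wild type air arrays. Array A of wild type air lies well below array B, and the differences were 0.27 ± 0.69 in the ixr1 null strain and 1.13 ± 0.68 in the wild type (limma adjusted p = 0.867 and 0.389).

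Members of 3 further pairs lie around the channel by which the message leaves. RPS26A and RPS26B, for a protein of the platform that touches the message ahead of the start codon, differed between hypoxia and air by -0.30 ± 0.42 and -0.04 ± 0.54 in the ixr1 null strain and by 0.37 ± 0.43 and 0.04 ± 0.54 in the wild type, with limma adjusted p from 0.709 to 0.983. RPS0A and RPS0B, for a protein needed to finish the 18S ribosomal RNA, differed by -0.12 ± 0.69 and -0.12 ± 0.57 in the ixr1 null strain and by -0.58 ± 0.68 and -0.60 ± 0.56 in the wild type. RPS14A and RPS14B encode a platform protein that in yeast holds back the splicing of RPS14B messenger RNA. They differed by 0.77 ± 0.47 and 0.38 ± 0.71 in the ixr1 null strain and by -0.62 ± 0.47 and -1.56 ± 0.70 in the wild type, where RPS14B read 0.170 and 0.268 on the hypoxia arrays and 0.640 and 0.499 on the air arrays (limma adjusted p = 0.219). None of these 6 genes passed the test in either genotype.

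**Figure D3:**
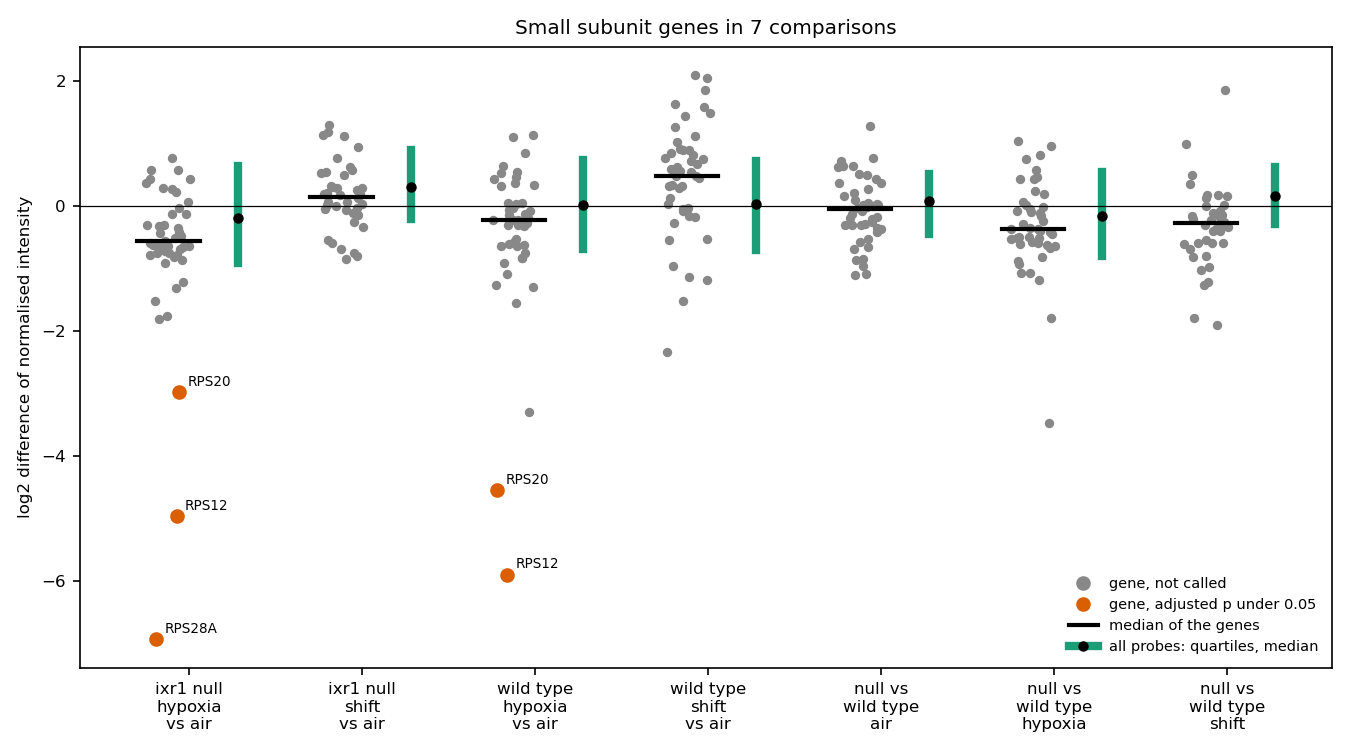
Each grey or orange point is the log2 difference of normalised intensity of 1 small subunit gene in 1 of 7 comparisons, orange where the adjusted p is under 0.05; the black bar is the median of the genes, and the green bar with its dot gives the quartiles and median of all probes. The named orange points are RPS28A, RPS12 and RPS20 in ixr1 null hypoxia against air and RPS12 and RPS20 in wild type hypoxia against air.

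After 3 hours of nitrogen no small subunit gene passed the test in either genotype. The log2 differences of the ixr1 null strain were above 0 for 26 of 42 genes and their median was 0.15, where that of all probes was 0.30. Those of the wild type were above 0 for 35 of 50 and their median was 0.48, where that of all probes was 0.04. With limma 0 of 42 genes were called in the ixr1 null strain, where 1.97% of 2228 probes were (1.84% up and 0.135% down). An unadjusted p under 0.05 was seen for 4 of the 42, beside 322 of the 2228 probes. For the wild type 0 of 50 were called, where 0.749% of 4672 probes were (0.321% up and 0.428% down). An unadjusted p under 0.05 was seen for 7 of the 50, beside 739 of the 4672 probes. Readings of 0 left 12 genes untested in the ixr1 null strain and 4 in the wild type. All 12 were at 0 on ixr1 null shift array A. The medians, signs and shares of the shift after normalisation, those of all probes included, therefore leave out any fall to 0. Shares given below on the deposited values keep readings of 0. RPS9A, RPS24A, RPS28A and RPS28B are among the 12. They read 1.19 to 4.42 on the ixr1 null air arrays and 1.39 to 7.24 on ixr1 null shift array B.

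RPS25A had the smallest p in the wild type. It encodes a head protein that ribosomes need to start at certain internal entry sites. It read 3.27 and 4.49 on the ixr1 null shift arrays and 9.85 and 5.65 on the wild type shift arrays, against 3.14 and 2.64 on the ixr1 null air arrays and 1.48 and 1.61 on the wild type air arrays. All shift readings were above all air readings, most clearly in the wild type. The ixr1 null log2 difference was 0.49 ± 0.42 (limma adjusted p = 0.604). The wild type log2 difference was 2.09 ± 0.46 (limma adjusted p = 0.0744), and without wild type shift array B it was 2.45 and passed the test (adjusted p = 0.0204).

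RPS22A, for a protein of the body bound to the 18S RNA, read 2.48 and 5.40 on the ixr1 null shift arrays and 5.32 and 5.25 on the wild type shift arrays, against 2.01 and 1.58 on the ixr1 null air arrays and 1.63 and 1.45 on the wild type air arrays. Its log2 differences were 1.11 ± 0.45 and 1.64 ± 0.49 (limma adjusted p = 0.288 and 0.157). RPS3, which lines the entry of the message channel, read 5.28 and 9.38 on the ixr1 null shift arrays and 7.18 and 5.24 on the wild type shift arrays, against 3.33 and 2.85 on the ixr1 null air arrays and 3.58 and 2.96 on the wild type air arrays. Shift readings of both genes were above the air readings of both genotypes. RPS3 had the smallest p of the ixr1 null strain, with 1.30 ± 0.47 (limma adjusted p = 0.231), and ASC1 the third smallest, with 1.14 ± 0.47 (adjusted p = 0.294) from 4.56 and 9.01 on the shift arrays against 3.13 and 3.17 on the air arrays.

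RPS1A, for a protein of the platform, had the second smallest p in the wild type. Its ixr1 null readings were 2.10 and 7.30 on the shift arrays and 4.49 and 4.82 on the air arrays, which overlap. In the wild type it read 0.898 and 3.44 on the shift arrays against 6.90 and 10.03 on the air arrays. There the log2 difference was -2.33 ± 0.66 (limma adjusted p = 0.139), and without wild type shift array B it was -3.18 (adjusted p = 0.0257), and without array A it was -1.48. On the deposited values 4 of 54 genes (RPS3, RPS22A, RPS25A and RPS26A) were higher on all 4 shift arrays than on all 4 air arrays, 7.41% against 1.41% of all probes, and none was lower, where 9.89% of all probes were. These shares keep readings of 0, and a probe at 0 on a shift array cannot be higher on all 4. On ixr1 null shift array A 3489 of 5974 probes were at 0, but only 12 of the 54 genes. The part of these zeros in the contrast was not tested. Within the ixr1 null strain 9 of 42 genes were higher on both shift arrays than on both air arrays and 0 were lower, where 32.8% and 13.4% of all probes were. Within the wild type 23 of 50 were higher and 6 lower, where 23.4% and 19.6% were.

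The shift medians depended on single arrays in the ixr1 null strain. Its median of 0.15 was 0.76 without shift array A and -0.50 without shift array B. The log2 difference of RPS0A was 0.36 without array A and -2.07 without array B. With quantile normalisation of the positive values alone the median was -0.67, where that of all probes was -0.82 in the same setting. The wild type median was above 0 in all 15 alternatives run.

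Arrays of the same group were also set against each other. On ixr1 null shift array B 41 of 42 small subunit genes read higher than on array A, by a median log2 difference of 1.34, whereas 36.0% of all probes read higher and their median was -0.46. RPS14B was the exception, at -1.74. On the wild type shift arrays 26 of 51 genes read higher on B, with a median of 0.01. In the other 4 groups the medians of B minus A ran from -0.31 to 0.22. RPS12 had the largest difference in ixr1 null shift, 3.00, from readings of 0.317 and 6.10, and it was 2.10 in wild type shift, from 0.816 and 4.29. RPS4A followed with 2.76 and 1.83. Over the 42 genes with values on all 4 shift arrays, B minus A in the ixr1 null strain and in the wild type had a Pearson r of 0.65 and a Spearman rho of 0.68 across genes, and over all probes r was 0.65. These points share their arrays, and genes are not independent replicates.

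**Figure D4:**
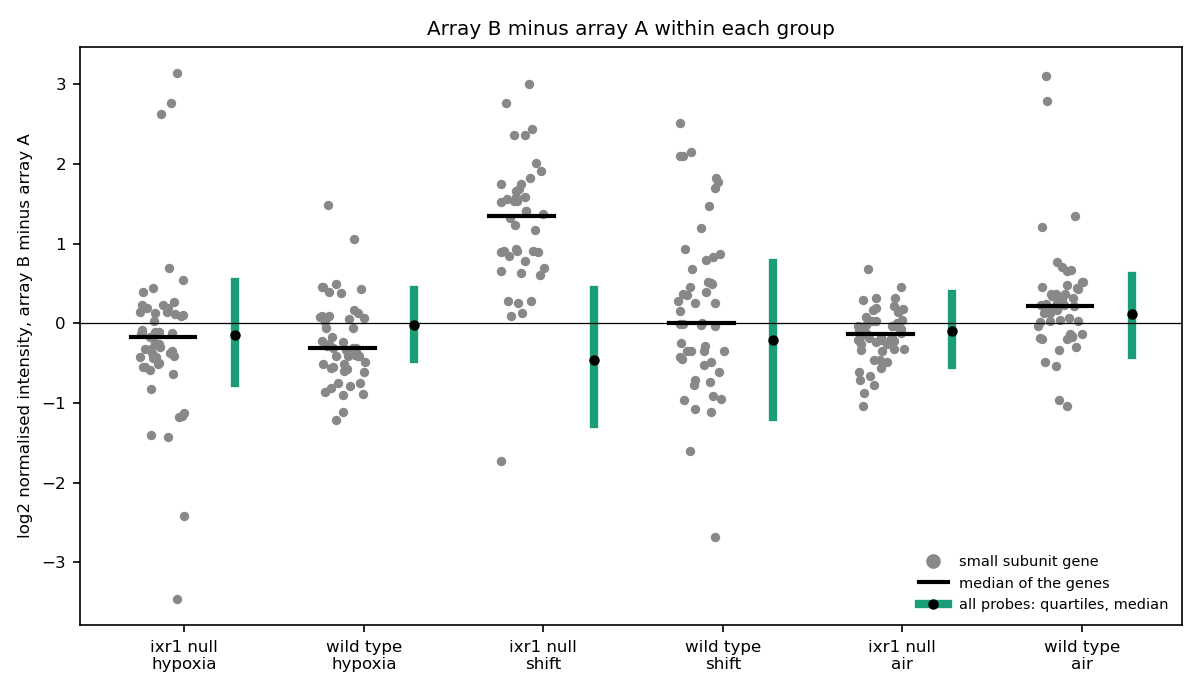
Log2 normalised intensity of array B minus array A in each of the 6 groups, with 1 grey point per small subunit gene, a black bar at their median and a green bar with a dot for the quartiles and median of all probes. In ixr1 null shift the genes sit at a median of 1.34 and all but RPS14B are above 0, while all probes have a median of -0.46.

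Between the genotypes no small subunit gene passed the test in any condition. In air 0 of 50 were called, as were 0% of all probes, and 1 had an unadjusted p under 0.05, beside 382 of 5043 probes. In hypoxia 0 of 50 were called, where 0.279% of all probes were (0.149% up and 0.13% down), and after the shift 0 of 42, where 0% were. The counts at an unadjusted p under 0.05 were 1 in hypoxia, beside 771 of 5379 probes, and 5 after the shift, beside 170 of 2231 probes. Medians of null over wild type were -0.05 for air, -0.37 for hypoxia and -0.28 for the shift, where those of all probes were 0.08, -0.16 and 0.16. The air median was 0.21 on the deposited values, where that of all probes was 0.39. Leaving out wild type hypoxia array A put the hypoxia median at -0.13. Leaving out ixr1 null shift array A put the shift median at 0.25, and leaving out array B put it at -0.93. Null over wild type after the shift also differed by letter. Between the arrays lettered A alone the median was -0.85, with 4 of 42 genes above 0, and between those lettered B alone it was 0.15, with 31 of 49 above 0.

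RPS1B had the smallest p in air, with readings of 3.98 and 4.59 on the ixr1 null arrays against 5.94 and 10.5 on the wild type arrays (log2 difference -1.10 ± 0.49, limma adjusted p = 0.658). RPS2, for a protein that lines the entry of the message channel with Rps3, followed with -0.84 ± 0.46, and RPS1A with -1.09 ± 0.66. These 3 genes read lower on both ixr1 null air arrays than on both wild type air arrays, as did 18 of 50 genes, where 21.6% of all probes did, and 8 were higher, where 25.1% were. In hypoxia RPS28A stood at -3.48 ± 1.09 (adjusted p = 0.208), RPS4B at -1.80 ± 0.83 and RPS28B at -1.19 ± 0.55. There 21 of 50 genes were lower on both ixr1 null arrays, where 31.3% of all probes were, and 9 were higher, where 22.9% were. After the shift RPS20 stood at 1.85 ± 0.56 (adjusted p = 0.492), from 2.89 and 3.99 on the ixr1 null arrays against 1.11 and 0.522 on the wild type arrays. RPS29A, for a zinc-binding protein of the head, stood at -1.91 ± 0.67 from 0.199 and 2.80 on the ixr1 null arrays against 5.03 and 4.33 on the wild type arrays, and RPS10A, near the entry of the message, at -1.79 ± 0.62. Of 42 genes 5 were lower on both ixr1 null shift arrays than on both wild type shift arrays and 1 was higher, where 9.28% and 16.4% of all probes were, counts that do not match arrays by letter.

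Whether hypoxia or the shift acted differently in the genotypes was tested as an interaction. With limma 0 of 50 genes were called for hypoxia, where 0.145% of all probes were (0.0826% up and 0.0619% down), and 0 of 42 for the shift, where 0% were. At an unadjusted p under 0.05 there were 1 and 5, beside 741 of 4844 and 213 of 2178 probes. RPS28A had the smallest p for hypoxia, with an interaction of -3.64 ± 1.51 (adjusted p = 0.294), followed by RPS1B with 1.53 ± 0.69 and RPS28B with -1.69 ± 0.77. RPS20 had the smallest p for the shift, with 2.37 ± 0.79 (adjusted p = 0.351), followed by RPS25A with -1.60 ± 0.59 and RPS30B with -1.85 ± 0.68. Falls that passed the test in 1 genotype and not in the other, such as that of RPS28A, were therefore not shown to differ between genotypes. Across the 50 genes the hypoxia differences of the ixr1 null strain and the wild type had a Pearson r of 0.71 and a Spearman rho of 0.03, where all probes had 0.65 and 0.42. The same sign was seen in 31 of 50, with 27 lower in both and 4 higher in both. Of all probes 2911 of 4844 had the same sign, with 1678 lower in both and 1233 higher in both.

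Copies of a pair were set against each other in hypoxia. Over 18 pairs tested in the ixr1 null strain, both copies had the same sign in 17, and the difference between their log2 changes had a median size of 0.30 and was under 0.5 in 14. Of the wild type pairs 13 of 17 had the same sign, the median size was 0.67 and 7 were under 0.5. Single genes were already below 0 in 76.5% of cases in the ixr1 null strain and 70.0% in the wild type, and whether copies were more alike than other genes was not tested. RPS0 was the closest pair in both genotypes, with the A copy minus the B copy at -0.003 (95% interval -0.90 to 0.89) in the ixr1 null strain and 0.02 (-0.87 to 0.92) in the wild type. RPS23 in the ixr1 null strain and RPS24 in the wild type were the next, at -0.02 each. In view of the shared coding sequence, a small difference does not show that both copies were measured separately.

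RPS28 was among the widest pairs in both genotypes. The change of RPS28A minus that of RPS28B was -5.18 (95% interval -7.55 to -2.81) in the ixr1 null strain and -3.23 (-5.60 to -0.86) in the wild type. RPS4 stood at 2.25 in the ixr1 null strain and -1.12 in the wild type, and RPS10 at -1.06 in the wild type, each with an interval that includes 0. RPS4B and RPS10B are the dim copies of their pairs. The intervals come from the same group-means fit on the difference of the copies within each array, and they are not adjusted for the number of pairs.

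Copies of a pair were also set against each other after the shift. Of the wild type pairs 12 of 17 had the same sign and the median size was 0.75. RPS22 was the widest pair in both genotypes, with RPS22A minus RPS22B at 1.46 (95% interval 0.04 to 2.87) in the ixr1 null strain and 1.80 (0.38 to 3.22) in the wild type. It was picked for that width from 10 and 17 pairs, the intervals are not adjusted for this, and neither copy passed the test. RPS22B read 0.123 and 2.38 on the ixr1 null shift arrays and 0.703 and 1.75 on the wild type shift arrays, against 1.47 and 1.57 on the ixr1 null air arrays and 1.20 and 1.42 on the wild type air arrays, so its shift readings lay on both sides of the air readings while those of RPS22A lay above. RPS24, RPS14 and RPS1 followed in the wild type, at -1.56, 1.46 and -1.37, and RPS9 and RPS0 were the closest, at 0.08 and -0.09. Of the ixr1 null pairs 5 of 10 had the same sign, RPS0 stood at -1.14 (-2.03 to -0.24), RPS29 at -0.92 and RPS23 at 0.74, and RPS26 and RPS27 were the closest, at 0.02 and 0.06.

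**Figure D5:**
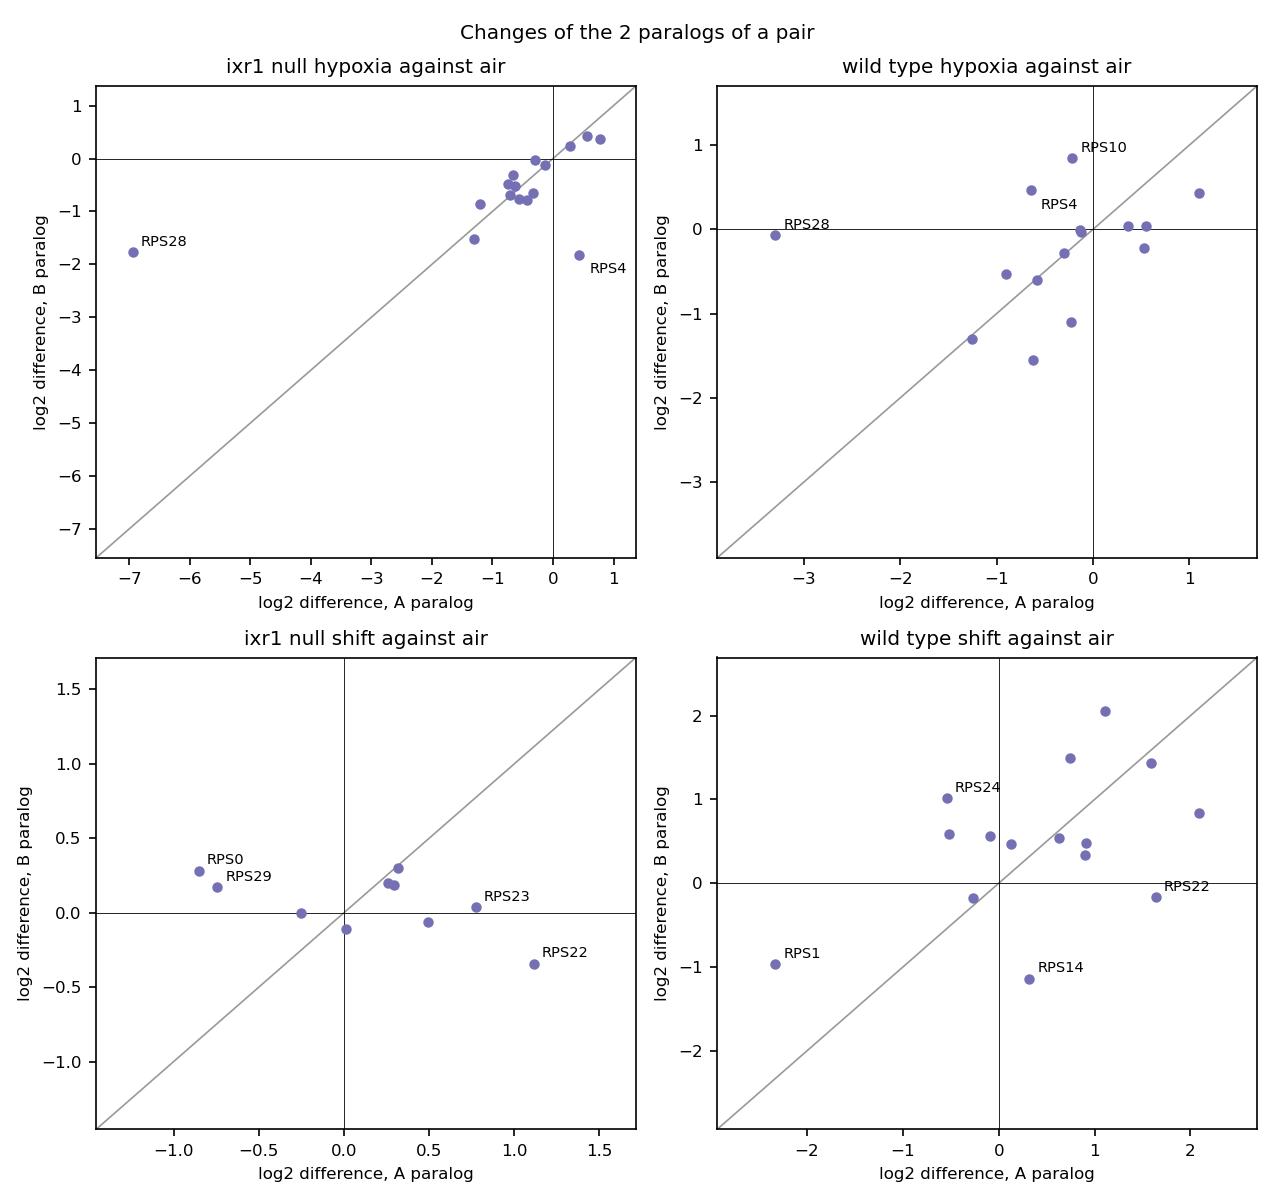
Each point is a pair of paralogs in 1 of 4 comparisons with air, with the log2 difference of the A copy on the horizontal axis and that of the B copy on the vertical axis; the grey line marks equal changes, and the widest pairs of each panel are named. RPS28 lies far to the left of the line in both hypoxia panels.

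Across the 12 arrays the mean log2 signal of the 42 genes with a value everywhere had its lowest value, 0.99, on ixr1 null hypoxia array B and its highest, 2.28, on ixr1 null shift array B. A gene's own correlation with the mean of the others had a median r of 0.69, and ran from -0.27 to 0.89. Among 2113 other probes with values on all arrays, those most like the mean were RPL33B (r = 0.97), RPP1A (0.94), RPL33A (0.92), RPL23A (0.86) and RPL22A (0.86), all on the list of large subunit genes. The median r was 0.67 over 60 large subunit genes and 0.07 over the 2113 probes. All these values share the 12 arrays and their scaling.

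Large subunit genes changed in both directions in hypoxia. Of 69 tested in the ixr1 null strain 3 rose and 7 fell, which is 14.5%, where 12% of all probes changed and 5.88% of the small subunit genes. Of 67 in the wild type 1 rose and 5 fell, which is 8.96%, where 11.9% of all probes changed and 6% of the small subunit genes. The shares of the subunits were not tested against each other. RPL27A fell (-5.96 ± 0.54, limma adjusted p = 0.00016) and RPL4A rose (4.86 ± 0.44, adjusted p = 0.000251) in the ixr1 null strain, and the stalk genes RPP0 (-7.88 ± 0.76, adjusted p = 0.000158) and RPP2A (-5.44 ± 0.58, adjusted p = 0.000266) fell in the wild type. Their median difference was -0.51 in the ixr1 null strain and -0.35 in the wild type, beside -0.56 and -0.22 for the small subunit. After the shift limma called 0 of 61 in the ixr1 null strain, where 1 had an unadjusted p under 0.05, beside 322 of 2228 probes. In the wild type it called 1 of 65, RPL29 (3.72 ± 0.71, adjusted p = 0.0468). The medians were 0.12 and 0.45.

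Genes that build the small subunit changed in both directions in hypoxia, in shares to be read against the 12% of all probes in the ixr1 null strain and 11.9% in the wild type. Of 48 genes of the small subunit processome and 40S assembly tested in the ixr1 null strain, 4 rose and 5 fell (18.8%), with ENP1 at 5.49 ± 0.50 (limma adjusted p = 0.00027) and UTP5 at 6.06 ± 0.66 (adjusted p = 0.00057). Of 47 tested in the wild type 3 rose and 3 fell (12.8%), with UTP11 at 5.03 ± 0.51 (adjusted p = 0.000291) and UTP5 at 3.55 ± 0.65 (adjusted p = 0.00585). Of the initiation factors, which act on the small subunit, 2 of 21 rose and 1 fell in the ixr1 null strain (14.3%), RPG1 of eIF3 by 4.47 ± 0.57 (adjusted p = 0.000802) and TIF4631, for eIF4G, by 4.94 ± 1.10 (adjusted p = 0.0247), and 0 of 20 were called in the wild type, where 5 had an unadjusted p under 0.05 and NIP1 (-2.54) and SUI3 (-1.47) the smallest. The small subunit of the mitochondrial ribosome had 1 of 30 genes up and 3 down in the ixr1 null strain (13.3%) and 3 of 29 up and 1 down in the wild type (13.8%), with MRP51 falling by 4.42 ± 0.77 and 3.76 ± 0.75 on the log2 scale (limma adjusted p = 0.00572 and 0.00933). Most of these shares are near those of all probes, and none was tested against them. After the shift limma called none of these 3 lists, with 1 processome, 2 initiation and 1 mitochondrial gene at an unadjusted p under 0.05 in the ixr1 null strain, and 5, 6 and 5 in the wild type. Those tested numbered 6, 10 and 12 in the ixr1 null strain and 37, 20 and 28 in the wild type. Of all probes 322 of 2228 and 739 of 4672 had such a p after the shift, and 1124 of 4969 in wild type hypoxia.

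The known regulators of ribosomal protein genes that could be tested were not called. Of 17 with a probe, 14 were tested in hypoxia in each genotype, and 6 in the ixr1 null strain and 13 in the wild type after the shift, with 0 past the limma threshold. At most 2 had an unadjusted p under 0.05, in wild type hypoxia, beside 1124 of 4969 probes. RAP1 read 0.852 and 1.08 on the ixr1 null hypoxia arrays and 0.569 and 0.568 on the wild type hypoxia arrays, 0.319 and 0.434 on the ixr1 null shift arrays and 0.893 and 0.423 on the wild type shift arrays, against 1.00 and 1.46 on the ixr1 null air arrays and 0.672 and 0.626 on the wild type air arrays. SFP1 read 1.83 and 1.46 on the ixr1 null hypoxia arrays and 2.25 and 1.80 on the wild type hypoxia arrays, against 1.62 and 1.48 on the ixr1 null air arrays and 1.19 and 0.842 on the wild type air arrays. IFH1, the coactivator that joins Fhl1 at these promoters, read 0.911 and 0.916 on the ixr1 null hypoxia arrays and 1.34 and 1.37 on the wild type hypoxia arrays, against 1.23 and 0.853 on the ixr1 null air arrays and 1.99 and 1.21 on the wild type air arrays. FHL1 read 0.185 to 0.295 on the hypoxia arrays and 0.203 to 0.330 on the air arrays, which overlap. On ixr1 null shift arrays A and B, SFP1 read 0 and 1.60, FHL1 0 and 0.242, and IFH1 0.353 and 0.696. On the wild type shift arrays SFP1 read 0.269 and 2.10, FHL1 0.0688 and 0.399, and IFH1 1.99 and 0.673. The readings of 0 left SFP1 and FHL1 untested in the ixr1 null shift. The smallest p in hypoxia belonged to DOT6 in the ixr1 null strain (1.58 ± 0.62, limma adjusted p = 0.152) and TOD6 in the wild type (1.74 ± 0.74, adjusted p = 0.201), both repressors of ribosome biogenesis genes.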

How the data were processed

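Gene members, lists and tests were chosen with earlier results of these data known. Each of the 12 arrays, read per the labels as 32P-labelled cDNA primed with oligo-dT(18), has 1 intensity per open reading frame deposited by the authors on a linear scale with a mean close to 1. The labels do not say how spots were read, background-subtracted and scaled, nor what the probes are. Of 5974 probes, 5571 matched a locus tag of the RefSeq gene table of assembly R64, used for symbols only, and 403 did not.

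The log2 medians of the arrays differed by up to 1.49, so arrays were quantile normalised with zeros included, zeros were set to missing and the rest log2 transformed. Per comparison, a group-means model over all 12 arrays was fitted to probes with a value on every array of the groups compared, with variances moderated as in limma 3.58.1 (R 4.3.3), and p-values adjusted over all probes tested (Benjamini-Hochberg, threshold 0.05). Errors of differences are SE with n = 2 arrays per group. There were 9 comparisons. Folds are given only where every reading reaches the 10th percentile of positive readings on its array. With 2 arrays per group the smallest two-sided p of an exact permutation test is 0.333. Arrays hold no counts, so their number limits the precision. The fit was tested on simulated data.

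Named genes are, per comparison, every gene called, or the 3 of smallest p where none was; the 4 widest and 2 closest pairs in the comparisons with air; RPS31, ASC1 and the RPS26, RPS0 and RPS14 pairs; the 2 of smallest p in each further list described; IXR1 and 4 regulators; and the 5 probes most like the mean. Genes outside that rule (RPS28B beside its other copy, RPS22B, RPS4A, the uncalled genes beyond 1 log2 unit, and the genes of non-overlapping groups and of dim copies) were named after their values were seen. A few genes and pairs that the rule picks are not reported here and are not drawn in the figures that name genes, but remain in the counts and medians. The planned search of promoters for motifs was not run, since no promoter sequence was used here.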

Additional observations from a re-analysis of the deposited data

Results flagged for a closer look

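The deposited intensity of RPS10B, for a head protein, moved in opposite directions in the genotypes after the shift, with both shift arrays below both air arrays in the ixr1 null strain and above them in the wild type. It read 0 and 0.0331 on the ixr1 null shift arrays against 0.272 and 0.197 on the ixr1 null air arrays, a change of mean of -0.218, and 0.215 and 0.326 on the wild type shift arrays against 0.0274 and 0.166 on the wild type air arrays, a change of 0.174. The changes differ by -0.392. RPS10B is dim: it was at 0 or under the 10th percentile of positive readings on 4 of 12 arrays, among them both ixr1 null shift arrays and wild type air array A. After quantile normalisation the ixr1 null groups overlapped, since shift array B stood at -0.01 relative to the gene median (log2), between air array A at 0.52 and air array B at -0.26. The difference was not tested, because the reading of 0 keeps RPS10B out of the interaction fit.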

How the results depend on the processing

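Over the 9 comparisons, 119 alternative counts of called genes were within 1.5 times the reported count and 14 were not, and 106 alternative medians moved by less than the spread between arrays and 27 by more, as follows. In ixr1 null hypoxia against air 1 gene was called on the deposited values and with array medians set equal, and 5 with a variance trend, with 1 to 3 when arrays were left out; the median was -0.71 on deposited values and -0.80 with medians equal. In ixr1 null shift against air the median was -0.67 with quantile normalisation of positive values only, 0.76 without both shift arrays A, -0.50 without both shift arrays B, and -0.50 to 0.76 when single arrays were left out. The count of genes called there moved only in fits without ixr1 null shift array B, which leave 1 array in that group. In wild type hypoxia against air 5 were called when only the arrays compared were fitted, and leaving out arrays gave medians of -0.456 to -0.0269. In wild type shift against air 1 was called with values floored and 1 with a variance trend, 2 without both B arrays and 0 to 2 when arrays were left out; the median was 0.76 with medians equal and 0.35 without both B arrays, with 0.35 to 0.52 when single arrays were left out. Null against wild type had a median of 0.21 in air on deposited values and -0.43 to -0.13 in hypoxia when arrays were left out. After the shift it was -1.17 with medians equal and -1.05 with positive values only, -0.93 to 0.25 when arrays were left out, with 1 gene called without both B arrays and 0 to 1 when arrays were left out. The interaction medians were -0.55 (deposited) and -0.57 (medians equal) for hypoxia, with -0.49 to -0.14 when arrays were left out. For the shift they were -1.07 (medians equal), -0.98 (positive values only), 0.40 (no A arrays) and -0.76 (no B arrays, 1 called), with -0.83 to 0.43 when single arrays were left out. The cause of these moves was not tested. Counts of genes called under the alternatives are given without the share of all probes called in the same setting. Those with arrays left out rest on 1 array in a group. RPS20 in wild type hypoxia passed in 13 of 13 alternatives and RPS12 in 12. In the ixr1 null strain RPS28A passed in 12 of 13, RPS20 in 9 and RPS12 in 6. The labels do not say what a letter shares between groups. As deviations from their group means, same-letter arrays of the genotypes correlated across probes by 0.257 (air), 0.189 (hypoxia) and 0.648 (shift). Pairs of groups from unlike conditions ran from -0.056 to 0.298, the highest for ixr1 null hypoxia with ixr1 null air, so only the shift value lies above them. With 2 letters, this is a hint from the data and not the design. A replicate block on the letter left the count of small subunit genes called as reported in all 9 comparisons, 3 in hypoxia in each genotype, with RPS12 in the ixr1 null strain at an adjusted p of 0.00851 (limma). Among all probes it gave 88 calls in place of 44 for the ixr1 null shift against air, 20 in place of 0 for null against wild type after the shift, 26 in place of 0 for the shift interaction, 1 in place of 15 for null against wild type in hypoxia and 0 in place of 7 for the hypoxia interaction.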
